A study of Drosophila melanogaster with 2 samples.

Results

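Regions recovered with the tagged clock protein Clk were described at 7 genes of innate immune signalling in the fly: imd, PGRP-LB and Rel of the IMD pathway, and Tl, cact, dl and Dif of the Toll pathway. Every region with its summit in one of these genes or within 1 kb of it was taken, by Ensembl BDGP6 coordinates. This gave 7 of 2464 reproducible regions and 62 of 30000 pooled candidates. It gave 56 of 30000 candidates of replicate 1 and 63 of 30000 candidates of replicate 2. The reproducible regions are those that passed the authors' irreproducible discovery rate threshold, and they equal the strongest 2464 pooled candidates. A place in that list therefore follows pooled rank, and does not by itself show that the replicates agree at a region. The study is a ChIP-seq experiment on whole adult male Drosophila melanogaster of the strain Clk-GFP, of unknown age. The flies are a stable transgenic line in which Clk carries enhanced GFP at its C-terminal end, and sonicated chromatin was precipitated with an antibody against that tag, although the antibody field of the labels reads Clk. With 1 group, 2 biological replicates and nothing to set it against, no test between groups was possible. The labels do not give the promoter of the fusion gene, the time of day or whether the flies had met an infection.

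Flies answer bacteria and fungi mainly through a pair of NF-kappaB pathways. In the IMD pathway, peptidoglycan of Gram-negative bacteria is bound by recognition proteins of the PGRP family, the adaptor Imd passes the signal on, and the transcription factor Relish (Rel) is cleaved and enters the nucleus. In the Toll pathway, the ligand Spätzle activates the receptor Toll (Tl), the inhibitor Cactus (cact) is degraded, and Dorsal (dl) and Dorsal-related immunity factor (Dif) are released into the nucleus. Both pathways switch on genes for antimicrobial peptides, chiefly in the fat body, and Toll and Dorsal also pattern the back-to-belly axis of the embryo. Clk pairs with Cycle to drive the daily clock, and survival of infection in flies is known to vary with the time of day.

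A reproducible region lay at 5 of the 7 genes, namely imd, PGRP-LB, Rel, cact and Dif. Cact had 3 and each of the others had 1, while Tl and dl had none. Of all 13945 protein-coding genes on the major chromosome arms 20.0% had a reproducible summit in the gene or within 1 kb. The genes had been chosen with earlier results of these data known, so their count is a description and was not tested. Genes over 5 kb held such regions more often than shorter genes. Of genes up to 5 kb long, the class of imd and Rel, 16.1% had one. The share was 28.4% for genes over 5 and up to 10 kb, the class of PGRP-LB. It was 34.0% over 10 and up to 20 kb, the class of cact, dl and Dif, and 33.3% over 20 and up to 50 kb, the class of Tl. As many as the 3 regions of cact were found at 175 protein-coding genes, or 1.25%. That share is over genes of all lengths. The mean number of reproducible regions per gene was 0.19 in genes up to 5 kb and 0.54 in the class of cact. Of the 7 genes, imd, PGRP-LB, Rel and cact had one no farther than 1 kb from a start site, against 16.1% of all protein-coding genes. All 7 genes had a pooled candidate, against 72.9% of protein-coding genes. The authors labelled the pooled candidates as peaks and background, meant as input to their threshold, so a candidate alone is not a called region.

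**Figure D1:**
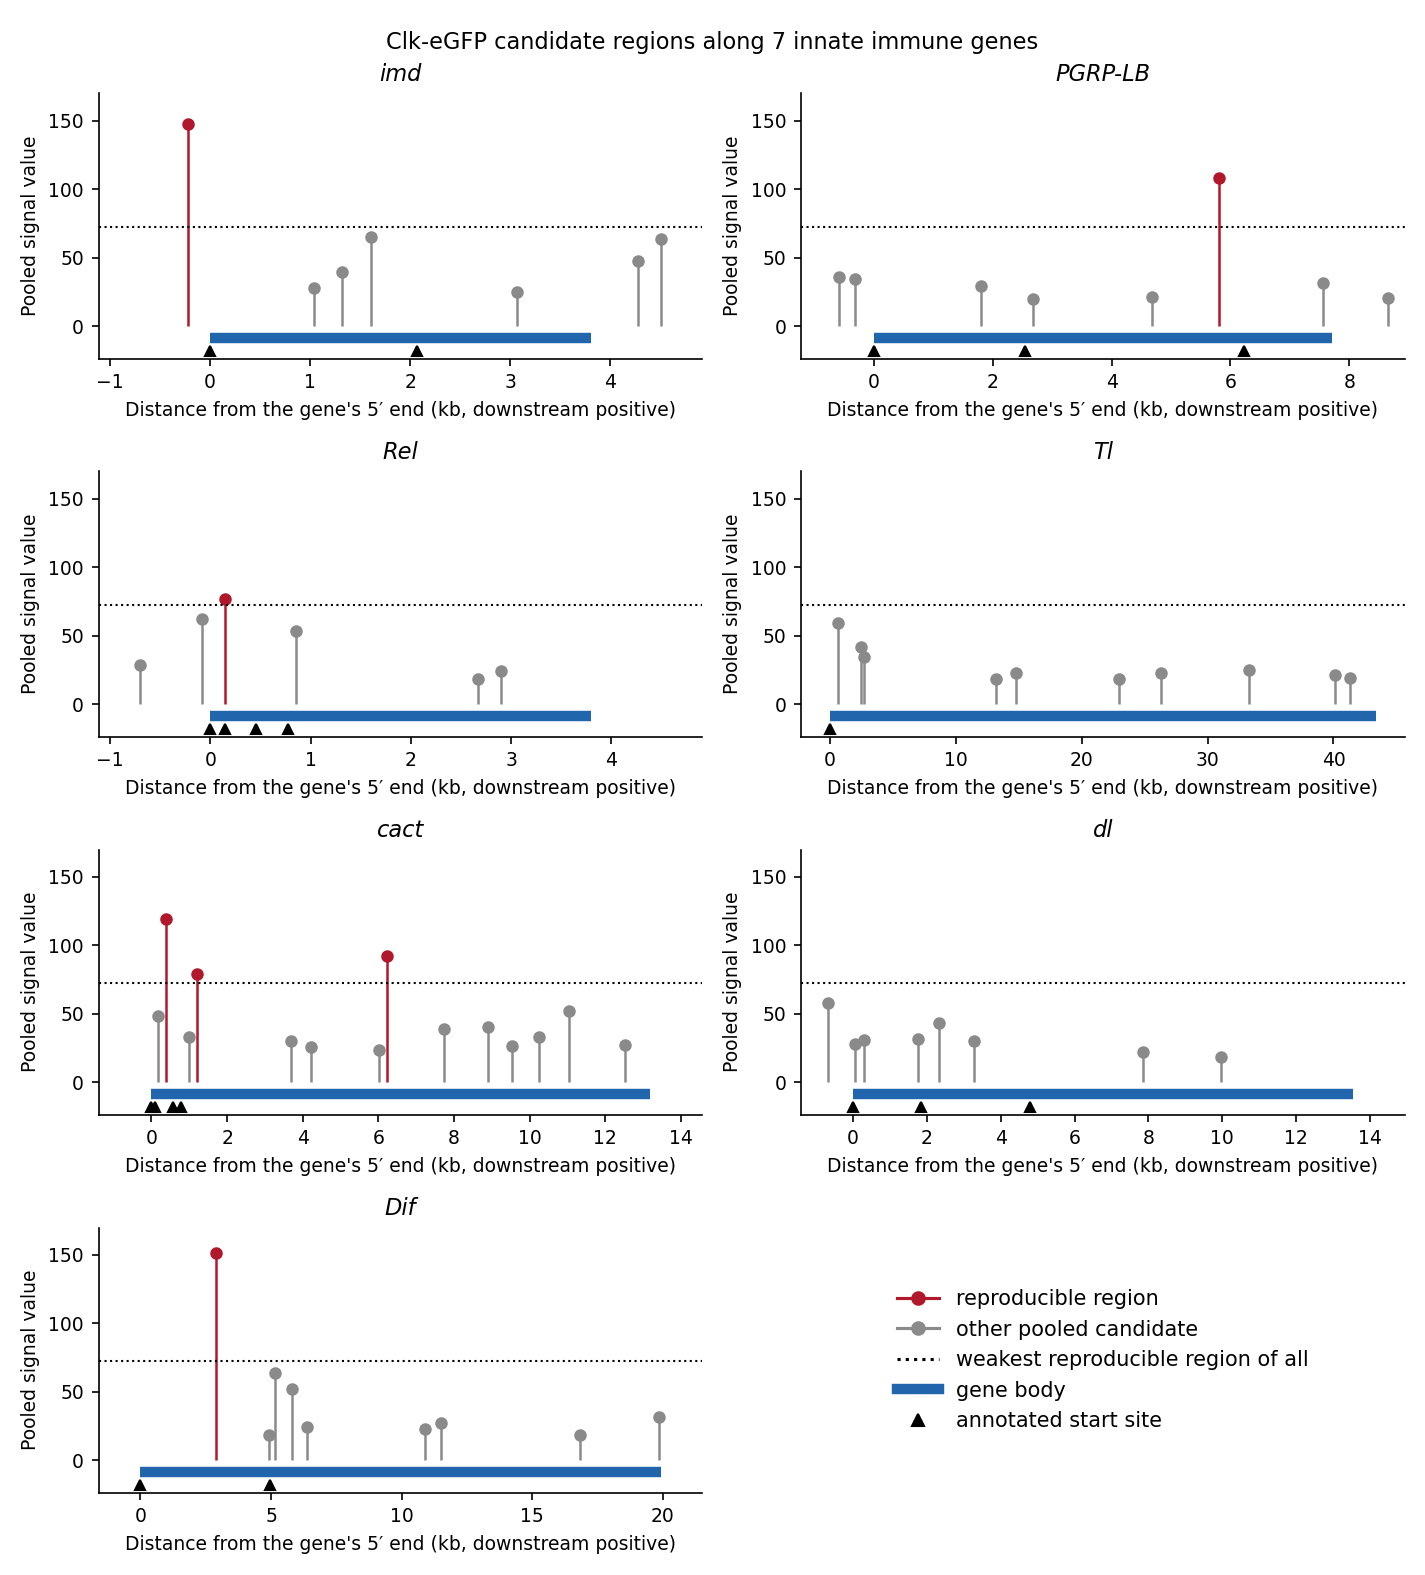
Each panel plots the pooled signal value of every candidate region, given by the authors' peak caller, against the distance of its summit from the annotated 5′ end of the gene in kb. Reproducible regions (red) stood above the dotted line at 72.4, the weakest value in the reproducible list, at imd, PGRP-LB, Rel, cact and Dif, and at Tl and dl all candidates (grey) stayed below it.

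Sites of PGRP-LB, cact, Dif, Tl and dl whose whole window lies clear of annotated UTRs are shown so that the DNA under each summit can be compared. Each sequence is the window that reaches 50 bp to either side of a summit, read from the RefSeq Release 6 assembly, which is build dm6, on the forward strand. Capitals mark matches to any of 5 motifs described further on, and where there are none no motif was found. The first 4 windows are reproducible regions, and those of Tl and dl are the strongest pooled candidates of these genes.
PGRP-LB, chr3R:11454690-11454790: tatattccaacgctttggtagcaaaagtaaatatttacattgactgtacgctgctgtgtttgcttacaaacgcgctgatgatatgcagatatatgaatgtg
cact, start-site intron, chr2L:16325774-16325874: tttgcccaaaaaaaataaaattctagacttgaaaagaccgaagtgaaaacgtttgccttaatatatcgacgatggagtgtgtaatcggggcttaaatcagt
cact, central intron, chr2L:16319931-16320031: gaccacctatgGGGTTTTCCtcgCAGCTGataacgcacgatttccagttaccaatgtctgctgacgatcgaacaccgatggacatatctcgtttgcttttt
Dif, chr2L:17430214-17430314: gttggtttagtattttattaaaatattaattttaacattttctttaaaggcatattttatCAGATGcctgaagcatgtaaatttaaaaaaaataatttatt
Tl, chr3R:26799665-26799765: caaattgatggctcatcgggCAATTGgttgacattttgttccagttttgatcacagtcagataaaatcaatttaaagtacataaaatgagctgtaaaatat
dl, chr2L:17450979-17451079: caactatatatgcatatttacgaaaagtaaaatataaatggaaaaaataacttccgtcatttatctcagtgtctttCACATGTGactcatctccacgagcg

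In the IMD pathway, PGRP-LB encodes an amidase that breaks down peptidoglycan and so dampens the response. PGRP-LB (FBgn0037906, reverse strand of chromosome 3R, 11452849 to 11460552) has 3 annotated start sites. Its reproducible region (11454530 to 11454949, summit 11454740) had a signal value of 79.5 in replicate 1, 34.2 in replicate 2 and 108 in the pooled list. It ranked 1006 in replicate 1, 1826 in replicate 2 and 1248 in the pooled list. Its pooled value was next to 109, the median of the reproducible list. The summit lay in an intron, 411 bp upstream of the start site nearest the 3′ end of the gene and 5812 bp downstream of the 5′ end. At the 5′ end itself the 2 upstream candidates, 326 and 585 bp before the gene, had pooled values of 34.0 and 35.7, below the 72.4 of the weakest reproducible region. The other 5 candidates of PGRP-LB had pooled values from 19.6 to 31.6, so 1 region stood well above the rest of the gene. The whole of PGRP-LB lies inside CG17230, a gene on the other strand, whose nearest start site was 8896 bp from the summit.

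The adaptor gene imd (FBgn0013983, reverse strand of chromosome 2R, 18409796 to 18413599) had its region just upstream of the gene (18413615 to 18414034, summit 18413825). Its signal value was 99.4 in replicate 1, 50.9 in replicate 2 and 147 in the pooled list, and it ranked 684, 834 and 707 in these lists. The ranks differed little between the lists. The summit lay 226 bp upstream of the imd start site and also 226 bp from a start site of Dp1, a gene for an RNA-binding protein with KH domains on the opposite strand. It thus lay midway between these start sites, inside an intron of longer Dp1 transcripts, and cannot be given to one gene over the other. A further candidate lay 1609 bp into imd, 458 bp upstream of its internal start site and 37 bp from a start site of Dp1. It had a pooled value of 65.3 at rank 2900. It was the member candidate nearest to the threshold from outside, 436 ranks past it. In replicate 1 alone its rank was 2280, inside the strongest 2464, and in replicate 2 it was 3644. A pair of candidates past the 3′ end of imd, with pooled values of 63.8 and 47.4, lay within 500 bp of a start site of GstE9, a glutathione S-transferase gene.

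Rel encodes the NF-kappaB factor at the end of the IMD pathway. The gene (FBgn0014018, reverse strand of chromosome 3R, 9044183 to 9047977) has 4 start sites. Its region (9047616 to 9048035, summit 9047826) had a signal value of 49.6 in replicate 1, 25.2 in replicate 2 and 76.6 in the pooled list. The ranks were 2254, 3283 and 2251. It was the weakest of the 7 reproducible regions and was outside the strongest 2464 candidates in replicate 2. The summit fell in the 5′ UTR, 3 bp from a start site, and the replicate summits lay 3 and 1 bp from it. Candidates on either side, 79 bp upstream of the gene and 853 bp into it, had pooled values of 61.9 and 53.3. A weaker candidate 706 bp upstream of Rel, near start sites of Nmdmc and Mst85C, had a pooled value of 28.9. The Rel summit at the start sites was therefore the highest of these 4 candidates. Rel lies wholly inside Nmdmc, a folate metabolism gene on the same strand, whose nearest start site was 825 bp from the summit.

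In the Toll pathway, the receptor gene Tl (FBgn0262473, forward strand of chromosome 3R, 26799041 to 26842403) is the longest of the 7 at 43.4 kb and had no reproducible region. Its strongest pooled candidate (summit 26799715) lay in an intron 674 bp downstream of the only start site, with a pooled value of 59.3 at rank 3385. In replicate 1 the value there was 23.6 at rank 8280, and in replicate 2 it was 35.8 at rank 1681. The replicates therefore disagreed on this site, which was inside the strongest 2464 in replicate 2 and far outside them in replicate 1. Replicate 1's own strongest candidate at Tl, 93 bp from the start site, reached 24.7 at rank 7538. The 2 next pooled candidates, 2461 and 2678 bp into the gene, had values of 41.6 and 34.6. The other 7 were spread over the rest of the gene, at ranks from 15596 to 28677. Among genes over 20 and up to 50 kb, 40.9% had a stronger pooled candidate than Tl.

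The inhibitor gene cact (FBgn0000250, reverse strand of chromosome 2L, 16313036 to 16326207) carried the most regions of the 7 genes, with 3 reproducible and 14 pooled. The strongest (16325614 to 16326033, summit 16325824) had a signal value of 95.7 in replicate 1, 33.6 in replicate 2 and 119 in the pooled list, at ranks 739, 1886 and 1065. It lay in an intron 199 bp upstream of a start site, among 4 start sites that all fall within 787 bp of the 5′ end. The second (16324793 to 16325212, summit 16325003) lay in a coding exon 1204 bp into the gene, with 65.1 in replicate 1, 37.2 in replicate 2 and 78.8 in the pooled list. Its replicate 2 summit was 168 bp away, on the side of the first region. The third (16319771 to 16320190, summit 16319981) lay in an intron 6226 bp into the gene, far from any annotated start site of cact. It had 66.0 in replicate 1, 23.7 in replicate 2 and 92.0 in the pooled list, at ranks 1379, 3652 and 1661. In replicate 2 this intron site was thus outside the strongest 2464, and the strongest site was inside. The replicate 2 summit nearest the coding exon site ranked 1568, but it lay only 38 bp from another pooled candidate. That candidate, with its summit at 16325209, had a pooled value of 33.1, so the standing of the coding exon site itself in replicate 2 is not clear. The other 11 pooled candidates ranged from 23.4 to 51.7.

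The genes dl and Dif, which encode the NF-kappaB factors held by Cactus, lie near each other on the reverse strand of chromosome 2L, with 3668 bp between them that also hold CG5043 and CG33928. Dif (FBgn0011274, 17413248 to 17433161) had the strongest region of all 7 genes (17430054 to 17430473, summit 17430264). Its pooled value was 151 at rank 678, with 64.7 in replicate 1 at the summit nearest to it and 65.8 in replicate 2. Replicate 1 had split the site, with its stronger summit 157 bp away at 17430107 and a value of 81.0 at rank 972. That stronger summit lay inside the noncoding RNA gene lncRNA:CR44409, 401 bp from a start site of it. In replicate 2 the region ranked 487, the highest rank of any member region in any of the lists. The pooled summit lay outside that RNA gene, in an intron of Dif, 2897 bp downstream of the first Dif start site and 2065 bp upstream of the other. It was the only one of the 5 genes' leading regions with no start site of its gene within 1 kb. A candidate 180 bp past the other start site of Dif had a pooled value of 63.7, and ranked 4118 in replicate 1 and 1738 in replicate 2.

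By contrast dl (FBgn0260632, 17436830 to 17450364) had no reproducible region, and its 8 pooled candidates ranged from 18.1 to 57.5. The strongest (summit 17451029) lay 665 bp upstream of the gene, inside the noncoding RNA gene lncRNA:CR46204. Its value was 34.5 in replicate 1 and 17.7 in replicate 2, at ranks 4159 and 6516, and 57.5 in the pooled list at rank 3554. Near an internal start site, a candidate in replicate 1 reached 39.4 at rank 3296, while the nearest summit in replicate 2 was 308 bp away with 10.3. At dl neither replicate had a site among its strongest 2464. Among genes over 10 and up to 20 kb, 42.4% had a stronger pooled candidate than dl. No pooled candidate lay in the DNA between Dif and dl.

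The order of the genes by their strongest pooled value was Dif at 151, imd at 147, cact at 119, PGRP-LB at 108, Rel at 76.6, Tl at 59.3 and dl at 57.5. The replicates did not give the same order. In replicate 1 the strongest candidate of each gene ranked 684 for imd, 739 for cact, 972 for Dif, 1006 for PGRP-LB, 2254 for Rel, 3296 for dl and 7538 for Tl. In replicate 2 the ranks were 487 for Dif, 834 for imd, 1568 for cact, 1681 for Tl, 1826 for PGRP-LB, 3283 for Rel and 4668 for dl. Between the replicates Dif changed places with imd and with cact, and Tl changed places with PGRP-LB, Rel and dl, so the order within these pairs is not set by these data. In both replicates imd, cact, Dif and PGRP-LB stood above Rel and dl.

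**Figure D2:**
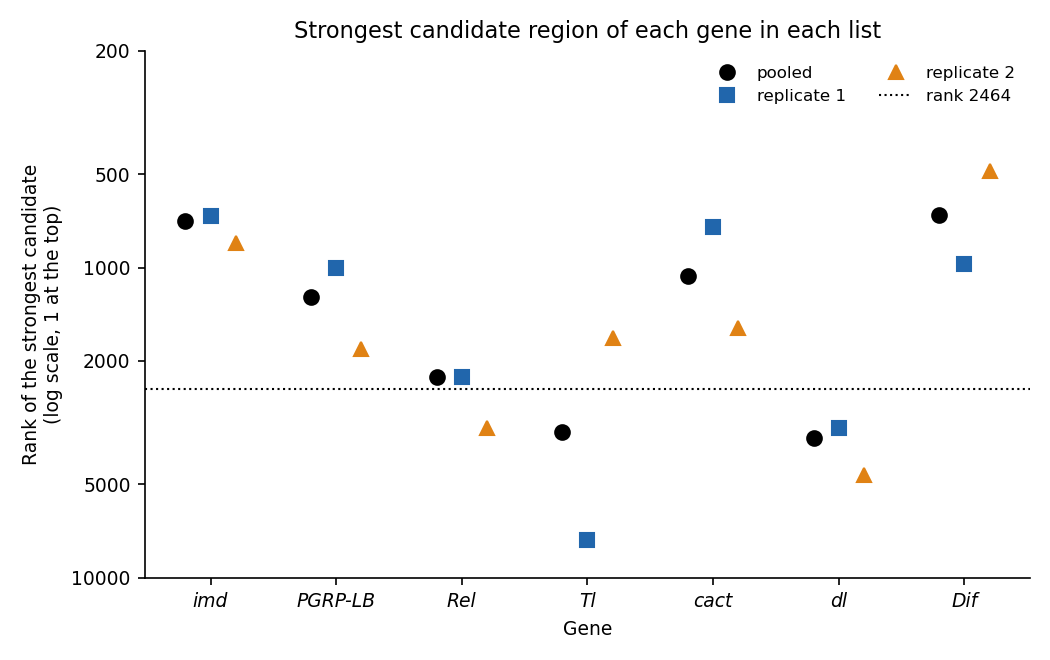
The rank of each gene's strongest candidate (log scale, strongest at the top) is plotted for the pooled list, replicate 1 and replicate 2, with a dotted line at rank 2464, the size of the reproducible list. Rel crossed the line downward in replicate 2 and Tl crossed it upward, while dl was below the line in all 3 lists.

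Judged by each replicate alone, taking its strongest 2464 candidates, 5 of the 7 genes had a summit in each. In replicate 1 these were imd, PGRP-LB, Rel, cact and Dif, against 20.0% of protein-coding genes, and in replicate 2 they were imd, PGRP-LB, Tl, cact and Dif, against 19.4%. The genes imd, PGRP-LB, cact and Dif were therefore held by both replicates, Rel by replicate 1 and Tl by replicate 2. Of the 7 reproducible regions 6 had a summit within 150 bp in both replicates, against 97.3% of all reproducible regions. The exception was the coding exon region of cact. Of the 62 pooled candidates at the 7 genes 33, or 53.2%, had a summit within 150 bp in both replicates, against 35.6% of all pooled candidates. By gene the counts were 5 of 7 at imd, 5 of 8 at PGRP-LB, 3 of 6 at Rel, 3 of 10 at Tl, 8 of 14 at cact, 5 of 8 at dl and 4 of 9 at Dif. Tl, the longest gene, thus had the smallest share of candidates seen in both. In these counts a replicate summit could serve more than 1 pooled candidate, as happened at Tl, cact, dl and Dif. Of the 62 pooled candidates 18 had another summit of the gene within 250 bp.

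The ratio of replicate 1 to replicate 2 signal differed among the regions. Its median over all 2398 reproducible regions with a summit in both replicates was 1.76, with 5% of regions below 0.943 and 5% above 3.48. At the Dif region it was 0.984, taken with the weaker summit of replicate 1 that lay nearest, and 93.8% of regions had a ratio as high or higher. At the strongest and the central cact regions it was 2.85 and 2.79, values that 11.2% and 11.6% of regions reached. At imd, Rel and PGRP-LB it was 1.95, 1.97 and 2.32. Dif was relatively stronger in replicate 2, and the strongest and central regions of cact in replicate 1, though all lay between those 5% limits. At the coding exon of cact the ratio was 1.75, but it was taken with a replicate 2 summit 168 bp away. That region is not among the 2398 that gave the median, so its ratio was not read as equal standing. At the leading Tl candidate, which was outside the list, the ratio was 0.659. Signal scales depend on each library, and read depth is unknown, so a ratio near the median was taken as equal standing.

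**Figure D3:**
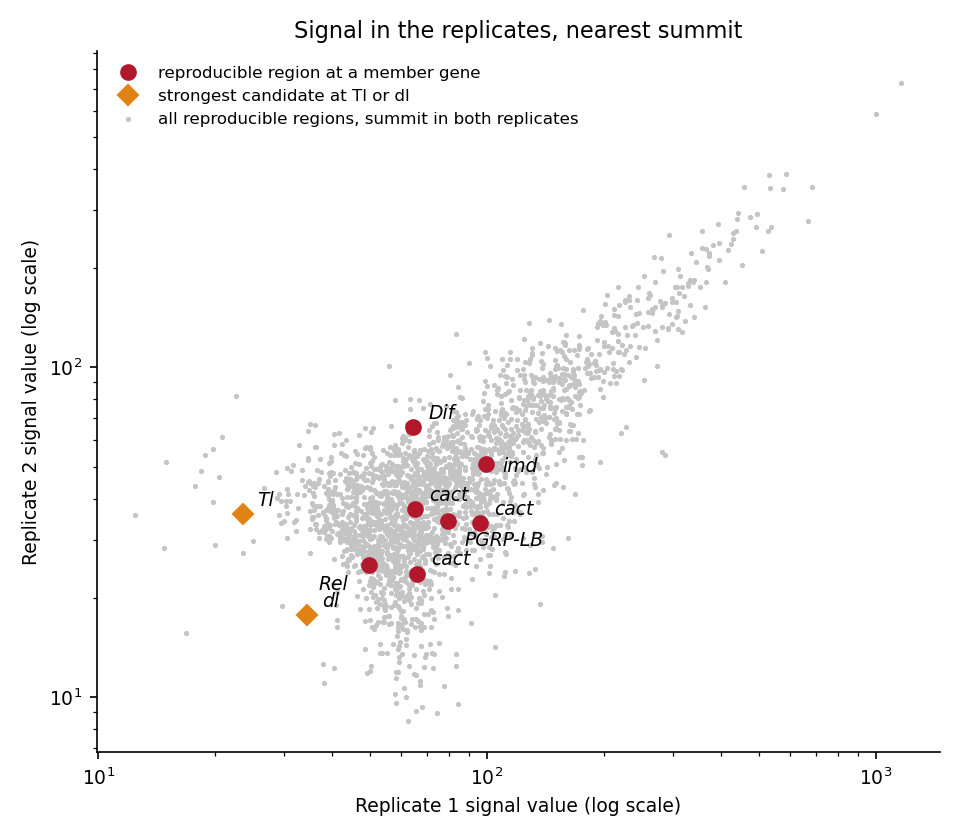
Replicate 2 signal values are plotted against those of replicate 1 on log scales, each at the summit nearest to the pooled one, for the 7 member regions (red), the strongest candidates of Tl and dl (orange) and the 2398 reproducible regions seen in both replicates (grey). The member regions lay within the grey cloud, and Dif, at 64.7 and 65.8, lay toward the replicate 2 side.

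The 5 motifs searched on both strands were the E-box of Clk and Cycle (CACGTG), any E-box (CANNTG, which includes the first), the GAGA factor element (GAGAG), the DREF element (TATCGAT), and a Dorsal-type site of GGG, then 4 or 5 A or T, then CC. CACGTG was in none of the 7 windows of 50 bp to each side of a reproducible summit, against 1.34% of all 2464. Over the whole regions it was again in none of 7, against 6.09%. CANNTG was in 4 of 7 windows, at imd, Dif and 2 of the cact regions, against 38.5% of all. Over the whole regions CANNTG was in 6 of 7, near the 85.0% of all. At Dif it read CAGATG, centred 12.5 bp from the summit. The Dorsal-type site was in 1 of 7 windows, against 0.649% of all, and over the whole regions in 1 of 7, against 3.49%. It was in the central intron of cact and read GGGTTTTCC, on the forward strand at 16319942 to 16319950, centred 35 bp from the summit. CAGCTG lay beside it, at 16319954 to 16319959, centred 24.5 bp from the summit. The GAGA element was in 1 of 7 windows, in the coding exon of cact, against 14.3% of all, and the DREF element was in none, against 4.71%. At the leading dl candidate, CACATG and CATGTG overlapped, centred 28.5 and 30.5 bp from the summit. A match of letters is not a measured binding site, and windows without one show only that these letters were not there.

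Among 81 further genes in 6 lists of the immune pathways, 22 or 27.2% had a reproducible summit in the gene or within 1 kb, against the 20.0% of all protein-coding genes. Of 16 other IMD pathway genes 5 had one. The strongest was at Tab2, the adaptor of the kinase Tak1, with 5 regions and a best rank of 303. It was followed by eff and ben, which encode ubiquitin-conjugating enzymes, at ranks 421 and 804, and by PGRP-LA at rank 2305 and PGRP-LF at rank 2327. Of 12 inhibitors of the IMD pathway 5 had one. The ubiquitin ligase gene POSH stood at rank 128, the deubiquitinase genes scny and trbd at ranks 708 and 820, dnr1, whose product restrains the caspase Dredd, at rank 952, and the homeobox gene cad at rank 1372. The POSH and trbd summits were also within 500 bp of start sites of Ns2 and dmt. The genes for the receptor PGRP-LC and for Fadd, Dredd and Tak1 had none.

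Of 20 further Toll pathway genes 7 had a reproducible summit. Deaf1, which encodes a transcription factor, led at rank 844, followed by the kinase gene pll at 1112, Traf6 at 1141 and the adaptor gene Myd88 at 1285. The Deaf1, pll and Traf6 summits also lay within 500 bp of start sites of Fibp, TfIIA-L and GIIIspla2. The gene of the ligand, spz, had none. Of 7 other Toll receptor genes Toll-7 alone had one, at rank 1078. Of 10 JAK/STAT genes 4 had one, with Stat92E, the transcription factor of that pathway, at rank 533 with 3 regions. Socs36E, a feedback inhibitor, stood at rank 870 and the phosphatase gene Ptp61F at rank 1636, also within 500 bp of a start site of CG9166. The best of this list, rank 94 at Su(var)2-10, was downstream of that gene, within 500 bp of a start site of GstE13.

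None of the 16 antimicrobial peptide genes, the targets of both pathways, had a reproducible summit in the gene or within 1 kb. These are short genes, none over 0.963 kb, and genes up to 5 kb had one in 16.1% of cases. The distance to the nearest reproducible summit ranged from 1.91 kb at CecA1 to 48.9 kb at Drs, with a median of 6.59 kb. Within 5 kb lay 7 of the 16 genes, next to 3 regions that lay at other genes. One was at the ribosomal protein gene RpS7 beside CecA1, CecA2 and CecB, one at Rpn6 and ave beside AttA and AttB, and one at PIG-C, Dpm2 and CG12016 beside Drsl2 and Drsl5. The share of all protein-coding genes within 5 kb of a reproducible summit was not computed, so the count of 7 cannot be read as many or few. Pooled candidates lay at 4 of the 16, against 72.9% of all protein-coding genes and 66.4% of those up to 5 kb, with Drsl2 the strongest at rank 5922. That class also holds longer genes, around which a longer stretch was searched. Several of the 16 genes shared a nearest reproducible summit, so they are not all separate places.

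**Figure D4:**
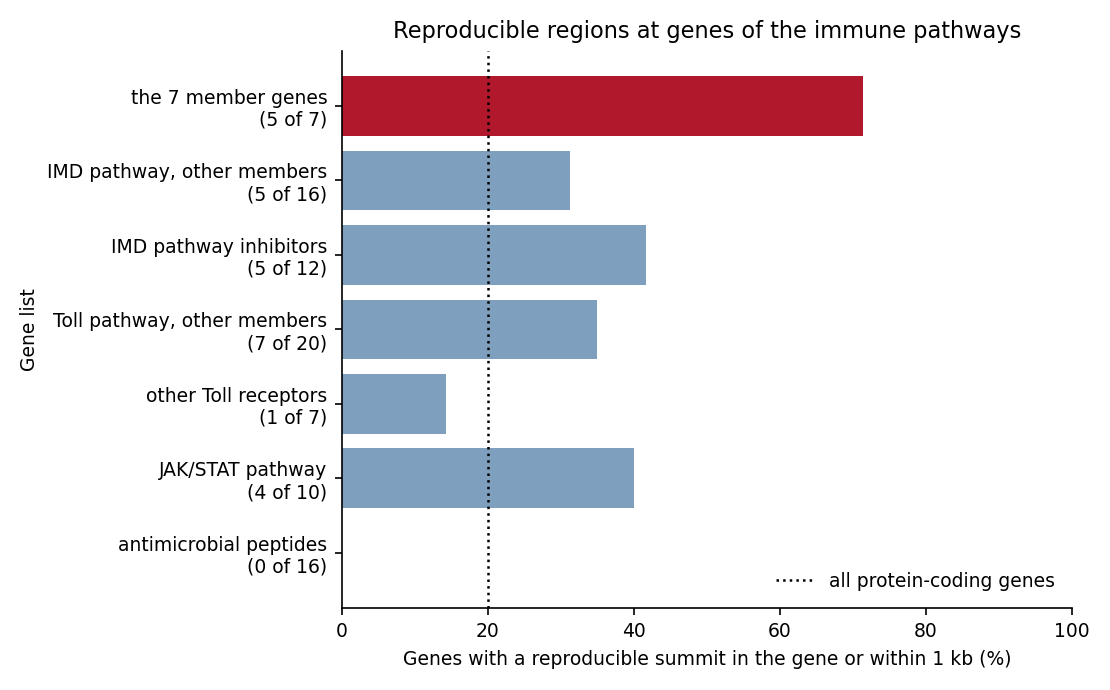
Bars give the percentage of genes with a reproducible summit in the gene or within 1 kb for the 7 member genes (red) and 6 lists of other immune genes (blue), and the dotted line marks 20.0% for all protein-coding genes. The 7 members were chosen with earlier results known, and the antimicrobial peptide genes had none of 16.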

How the data were processed

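The deposited notes state that reads were aligned to dm6 and dm3 and that candidate regions were derived with a control. Which aligner, caller and threshold served is not given in the sources used here. The dm3 lists were not used here. The score of a region is the signal value that the authors deposited, on a scale of each list, and regions were ranked by it within a list. The deposited −log10 q-value, read as such from the narrowPeak format, gave q from 0.000253 to 0.00121 in the reproducible list. Among the candidates q reached 0.874 in the pooled list, 0.815 in replicate 1 and 0.791 in replicate 2. The q-values were not used further. The reproducible list equals the strongest 2464 pooled regions. No counts were given, so depth is unknown. The labels call the samples biological replicates of 1 fly line.

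Summits came from the offset column, and coordinates are 1-based. Genes were those of Ensembl release 115 (BDGP6.54), and no region ran past a chromosome end. The members and lists were chosen with earlier results of these data known, and no test was run over them. Genes named were all members, up to 4 of each list by best rank, genes sharing a member summit, and the gene nearest to each member in replicate signal, of which 1 is not reported here. PGRP-LF, cad, the genes next to the antimicrobial peptide genes or between Dif and dl, Mst85C and those named as lacking a summit were added after their values were seen. Gene assignment and motif search were tested on simulated data. Python 3.11.15, NumPy 2.4.6, pandas 2.3.3 and matplotlib 3.10.9 were used.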

Additional observations from a re-analysis of the deposited data

How the results depend on the processing

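Recomputed under the other settings, 106 counts stayed within 1.5 times the reported one and 24 did not. With the stronger 1232 of the reproducible regions, 3 members had a summit (imd, cact and Dif) with 3 regions between them. Leaving out 1 replicate, with the strongest 2464 candidates of the other in place of the reproducible list, gave 5 members each time and 7 to 9 regions. With replicate 1 left out Rel had no region and Tl had 1, while Dif and cact had 2 each. With replicate 2 left out imd and Dif had 2 each and Tl had none. In the gene body alone imd had 0 and 4 members kept a summit, with a 5 kb margin Dif had 2 regions, and with start sites alone Dif had 0. Among the other lists, the gene body alone gave 3 IMD genes, 3 IMD inhibitors, 1 Toll pathway gene and 0 other Toll receptors. The stronger 1232 regions gave 3 IMD genes and 3 Toll pathway genes. Start sites alone gave 3 IMD inhibitors and 2 JAK/STAT genes, and a 5 kb margin gave 7 antimicrobial peptide genes. The share of all protein-coding genes at the 5 kb margin was not computed. The GAGA element was in 3 of the 7 member regions within 100 bp of the summit, against 28.9% of all 2464, and in 4 over whole regions, against 46.8%. The cause of these changes was not tested beyond what each setting removes or adds. No paired analysis was possible because there was only 1 group. Depth is unknown, so a gene without a listed region may have one below the 30000 kept.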

Other observations

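For imd, Rel, cact and Dif, the protein-coding gene with as many regions and the nearest pair of replicate signal values was found, over those whose strongest region had a summit in both replicates. It was subdued for imd, with 99.2 in replicate 1 and 51.4 in replicate 2 against 99.4 and 50.9 at imd. It was Pgm2a for Rel, Acsl for cact and Uba3 for Dif. The distances in log2 signal were 0.01 for imd, 0.01 for Rel, 0.15 for cact and 0.06 for Dif. With values from only 2 replicates, such likeness describes strength alone.

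The window at the Dif summit was 17.8% G and C, and 0.731% of all reproducible regions were as poor or poorer. The list median was 37.6%. The other member windows ran from 26.7% at imd to 55.4% at the coding exon of cact, so the members did not share a base composition.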
